A study of Drosophila melanogaster with 3 samples.

Results

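Among the peaks of the tagged transcription factor Mirror in Drosophila melanogaster embryos, 200 had their summit in the transcribed exons of protein-coding genes and away from promoters. They made up 3.23% of the final peak list, which otherwise held 2788 summits within 500 bp of a transcription start and 3213 summits in introns or between genes. These exonic peaks were chosen by position alone: the summit lay more than 500 bp from every annotated transcription start site (TSS) of a protein-coding gene and inside a 5' UTR, a 3' UTR or another exon of a protein-coding transcript. By kind, 68 summits lay in 5' UTRs, 103 in 3' UTRs and 29 in coding exons, where a summit that met more than 1 description was counted under the first of them in that order. Annotated coding sequence held 28 of the 29 coding-exon summits. The 3213 peaks in introns or between genes, all likewise more than 500 bp from TSSs, are called other distal peaks and served for comparison.

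Mirror belongs to the Iroquois family of homeodomain proteins, which carry a homeodomain of the TALE class and are known in flies for setting up pattern in the wing, the eye and the back of the body. UTRs are the ends of a messenger RNA that are not translated; in DNA they are ordinary stretches of a gene that can overlap introns of other transcripts of the same gene or lie beside the next gene. Chromatin immunoprecipitation sequencing (ChIP-seq) maps where a protein sits on DNA, and the summit is the position within a peak where the signal is highest. An exonic summit therefore means that the signal was highest over the DNA of an exon. It does not fix the exact bases bound, and it says nothing of the messenger RNA.

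The study profiled 1 group of samples, 3 biological replicates of whole embryos aged 4 to 20 h and of mixed sex, without an untagged or untreated group. All came from 1 transgenic line, mirr-GFP, that stably expresses Mirror fused to GFP at its C-terminal end; the labels do not give the promoter or the cells in which the fusion is made. Chromatin was sonicated to 200 to 800 bp. The labels call the samples biological replicates without saying how the embryos were collected, so the spread between lists may be partly technical. The free text of each sample speaks of an input control, whereas title, assay and antibody fields name ChIP of Mirror, and the age field is garbled, so the age was taken from the source field. The authors filtered peaks by irreproducible discovery rate (IDR), a measure of how well the ranking of regions repeats from replicate to replicate; the IDR list is pooled, and each replicate also has a relaxed list of 30000 regions. Its top regions are the strongest of these, as many as the IDR list has peaks. Sequencing depth was unknown. Peak strength is the authors' signal value, deposited without a stated scale and used here only within 1 list. In whole embryos, weak binding in many cells and strong binding in few cells cannot be told apart.

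The DNA letters under several of the strongest exonic summits are shown first, because they are the sites to which the sequence results below refer. The sequence ACANNTGT, a palindrome known as the Iroquois binding sequence, lay within 100 bp of 21 exonic summits (10.5%), beside a background of 13.4% of all IDR peaks. Among the strongest members that held it, 4 are printed from the release 6 reference of RefSeq, which is dm6, on the plus strand, with the matching bases in capitals.
ghi, 3' UTR, chr3L:9452586-9452613: gctgtaggcgACACATGTccaaagaggc
spen, 5' UTR, chr2L:161613-161640: aaggaaattgACAGATGTatgggtgatt
by, 3' UTR, chr3R:9528742-9528769: acccatgtgtACATATGTtttagcttcg
Dci, 3' UTR, chr3L:852526-852553: ctgtgtatgtACATATGTaccaatatat
These matches lay 20 bp from the summit in ghi, 12 bp in spen, 66 bp in by and 49 bp in Dci. Both by and Dci carried the form ACATATGT, which also holds the E-box CATATG.

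The GATA-factor sequence, searched as AGATAAG or TGATAAG on both strands, lay within 100 bp of 49 exonic summits (24.5%), beside a background of 20.1% of all IDR peaks. Among the strongest members with this sequence, 4 are printed in the same way, the last of them on the minus strand.
Fer2LCH, 3' UTR, chr3R:30390599-30390625: tttgcctctcTGATAAGgtttgggttt
CG17660, 3' UTR, chr2L:1707090-1707116: taagctagttAGATAAGgactaaagaa
CG7457, 3' UTR, chr3L:7721712-7721738: tccattgataAGATAAGccctgtgggg
l(3)mbn, coding exon, chr3L:6124785-6124811: accctgtaagTGATAAGaggaaattat
Their distances from the summit were 96, 56, 50 and 26 bp, in the order shown. CG7457 had 2 matches in its window, TGATAAG and AGATAAG, which overlap in the printed stretch, where only AGATAAG is in capitals. The other 3 members had 1 each. A match is a run of letters and was not tested as a binding site.

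Exonic summits were spread very unevenly over the kinds of exon. Per Mb of sequence farther than 500 bp from TSSs, the IDR list held 64.1 summits in 5' UTRs, 14.9 in 3' UTRs and 1.63 in coding exons, against 46.1 in introns and 19.6 between genes. In the top regions of each replicate the density in 5' UTRs was 53.7, 66.0 and 63.1 summits per Mb in replicates 1, 2 and 3, or 61.0 ± 6.42 (SD, n = 3), against 46.5 ± 4.77 in introns. The 5' UTR density exceeded the intron density in every replicate, by 1.31 ± 0.0655 times on average (SD, n = 3). Distance from TSSs was not matched in this ratio. In the IDR list 39 of the 68 5' UTR summits (57.4%) lay 500 to 1000 bp from a TSS, against 19.8% of intron summits. In 3' UTRs the density was 15.2 ± 1.63 summits per Mb, or 0.328 ± 0.0392 of that in introns, and in coding exons 1.89 ± 0.343 (SD, n = 3 each). Introns held 25.2 ± 5.58 times the density of coding exons (SD, n = 3). Each ratio lay on the same side of 1 in all 3 replicates, and an exact two-sided sign-flip permutation test over 3 lists gave p = 0.25 for each, the smallest value that it can give. Coding exons away from TSSs made up 13.3% of all bases on the main arms but held 0.468% of IDR summits, whereas 5' UTRs away from TSSs made up 0.792% of bases and held 1.10% of summits.

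**Figure D1:**
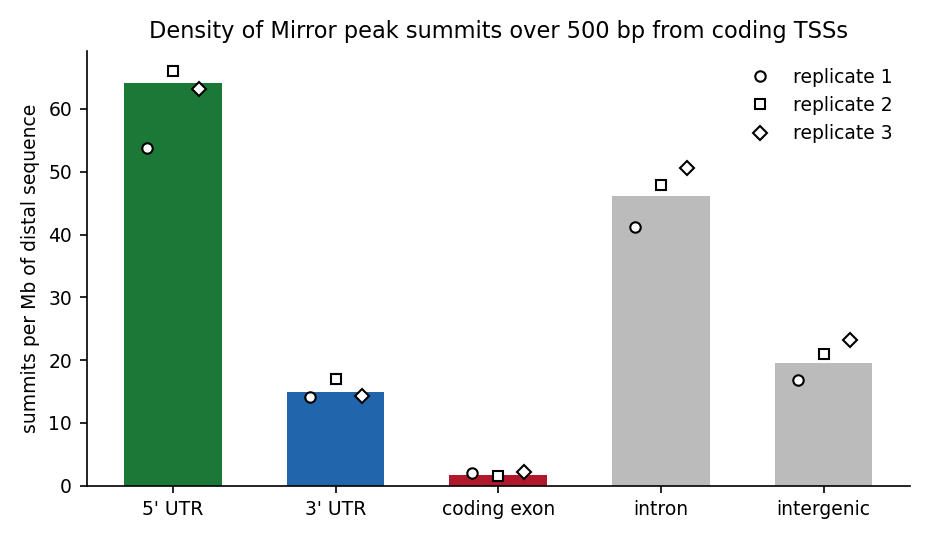
Summits per Mb of sequence farther than 500 bp from coding TSSs, for the 3 kinds of exonic summit and for introns and intergenic sequence. Bars give the IDR list and open symbols the top regions of each replicate; 5' UTRs stand highest at 64.1 summits per Mb and coding exons lowest at 1.63.

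The number of exonic summits was close between replicates. The top regions of replicates 1, 2 and 3 held 190, 215 and 205 exonic summits, which is 3.28% ± 0.203 of each list (SD, n = 3). Chromosome arms 2L and 3R carried 44 members each, 2R 41, 3L 37 and X 34, and the small arm 4 carried 0, against 8 other distal peaks there. At the 500 bp limit itself, the members just inside were a 5' UTR peak of amn, a neuropeptide gene of memory, at 501 bp with signal 238, and one of fwd, a phosphatidylinositol 4-kinase gene, at 503 bp with signal 209.7. The nearest peaks outside were 5' UTR summits of ths, an FGF ligand gene, at 497 bp with signal 486, and of Fbl6 at 487 bp with signal 507.

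Exonic peaks were about as strong as the other distal peaks, but few were among the very strongest. Their median signal was 285, with a range of 191 to 1183, against a median of 294 and a range of 191 to 4110 for the other distal peaks. The medians by kind were 291 in 5' UTRs, 280 in 3' UTRs and 288 in coding exons. Within the replicate lists, the median signal of exonic regions was 109.6, 80.6 and 109.5 in replicates 1, 2 and 3, against 115 in replicate 1, 80.8 in replicate 2 and 111 in replicate 3 for other distal regions. The log2 ratio of exonic over other distal medians was -0.033 ± 0.034 (SD, n = 3), lower in 3 of 3 lists, with an exact sign-flip permutation p of 0.25, the smallest possible. It was -0.0015 with a TSS limit of 1000 bp and -0.014 without replicate 1. Among the 300 strongest IDR peaks were 4 exonic peaks (2.00% of the members) and 144 other distal peaks (4.48%).

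**Figure D2:**
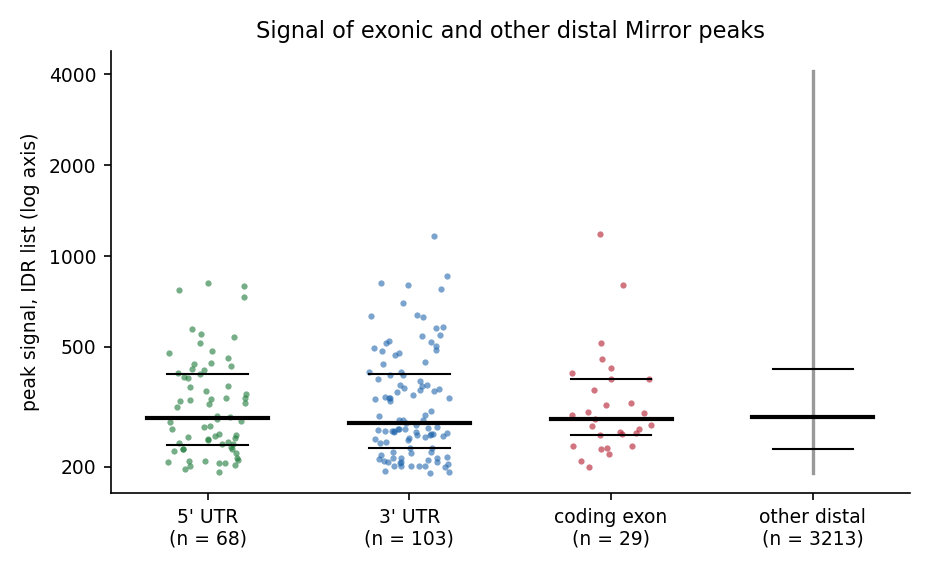
Signal of each exonic peak by kind (points) beside the other distal peaks, whose grey line spans their lowest to highest value; the axis is logarithmic. Thick lines mark medians and thin lines quartiles, and the medians of 291, 280 and 288 for the exonic kinds stand beside 294 for other distal peaks, while no exonic peak exceeds 1183.

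The strongest 5' UTR members included genes of transcription factors and of a nuclear regulator. Here and below, the replicate rank of a member is that of the strongest region overlapping its interval by at least 1 bp. The summit of that region can lie elsewhere. Pdp1, which encodes a bZIP factor of the PAR family, had peak 299 of the IDR list (signal 815), at rank 190 in replicate 1, 177 in replicate 2 and 1319 in replicate 3. Its summit was 520 bp from a TSS of Pdp1, and 4 of the 9 transcripts that span it carried it in an exon.

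The gene spen, which encodes a large nuclear RNA-recognition protein, had 3 summits in its 5' UTR. They were peaks 323, 848 and 893, with signals of 797, 552 and 540. The first and the second share 1 interval, so both take the ranks 150, 361 and 577 of the same overlapping regions in replicates 1, 2 and 3. For the first, replicate 2 had no region with a summit within 100 bp. The third had ranks 578, 915 and 2457. All 3 summits lay in an exon of 1 of the 5 spanning transcripts and 1827 to 2811 bp from the nearest TSS of spen.

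Peak 366 lay in dop, a gene for a microtubule-associated serine/threonine kinase, with ranks 549, 380 and 360. Peak 414 lay in cbt, a zinc finger factor gene that overlaps ush, with ranks 866, 173 and 397. The best region of replicate 1 with a summit within 100 bp of that of cbt ranked 4163. The GATA factor gene srp, known for blood and fat body development, had peak 775 with ranks 1330, 733 and 684, and its summit was exonic in all 4 spanning transcripts. These 3 members were among the top regions of every replicate.

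CAP, a gene for a muscle attachment adaptor protein, also had 3 members in its 5' UTRs. Peak 997 ranked 901, 2139 and 887 in replicates 1, 2 and 3, whereas peak 3123 ranked 10554, 4660 and 1162 and peak 3550 ranked 6455, 3270 and 2420. Only the first of the 3 was therefore among the top regions of every replicate. Tango5, known from secretion screens in fly cells, had peak 1164, and BNIP3, a mitophagy receptor gene, had peak 1201, both within rank 1836 in each replicate.

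The strongest 3' UTR members lay in genes of several kinds. Peak 104, with signal 1163, lay in the 3' UTR of CG6996, at ranks 121, 59 and 211, so it stood among the 300 strongest regions of every replicate. Peak 257 lay in CG5399, with signal 859 and ranks 623, 307 and 187. CAH7, a carbonic anhydrase gene, followed with peak 306 at ranks 388, 65 and 1088. Its nearest TSS was that of gammaSnap2, at 1557 bp.

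The next member, peak 312 in ghi, had ranks 543, 217 and 336. The tensin gene by had peak 354 at ranks 401, 393 and 362, the closest agreement among the 10 strongest 3' UTR members, and a second 3' UTR member, peak 1243. CG4467 had peak 465 at ranks 528, 535 and 406, and the ferritin gene Fer2LCH peak 588 at ranks 740, 835 and 562. Myd88, an adaptor of Toll signalling, had a 3' UTR peak, number 601, and a weaker coding-exon peak, number 4661. CG7872 had peak 610 with ranks 558, 1714 and 571, and puml, a gene of fat storage, peak 731 with ranks 1839, 151 and 1247, the widest spread of the 10 in rank. CG1888 was the third gene with 3 members, all in its 3' UTR. Its peak 1715 ranked 278, 1225 and 8371, its peak 3861 ranked 6710, 1030 and 5203, and its peak 6104 ranked 5417, 5277 and 4657. By regions with a summit within 100 bp, peak 1715 ranked 278, 3981 and 14129. Peak 3861 then ranked 19855 and 1030 in replicates 1 and 2 and had no such region in replicate 3.

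In coding exons, 2 members stood well above the rest. The strongest exonic peak of all was peak 99, with signal 1183, in a coding exon of otp, the homeodomain gene orthopedia. It ranked 133, 525 and 50 in replicates 1, 2 and 3, lay 4653 bp from the nearest coding TSS and was exonic in all 9 transcripts of otp that span it. Its whole interval lay within exon sequence, and the summit was 179 bp from the nearest base outside exons. Pde1c, a gene for a calmodulin-regulated phosphodiesterase, had peak 314 with signal 801 and ranks 280, 662 and 321. Its summit was likewise exonic in all 9 spanning transcripts, 128 bp from the nearest base outside exons.

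The remaining coding-exon members were weaker. The third was l(3)mbn, peak 1005, with ranks 912, 4030 and 809. CG6454, peak 1333, ranked 1955 in replicate 1 and 1658 in replicate 3 and had no overlapping region in the relaxed list of replicate 2. CG4230, peak 1530, ranked 1390, 960 and 6806. The cytoskeletal gene bif held peak 1667 at ranks 1715, 940 and 1818 and a second coding-exon peak, and Sdb held peak 1816 and a second one as well. For peak 1667 of bif, the best region of replicate 1 with a summit within 100 bp ranked 3446. Dyro (peak 1824), beta4GalNAcTA (peak 2165), a glycosyltransferase gene, and raw (peak 2630), a gene of dorsal closure, completed the strongest 10.

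**Figure D3:**
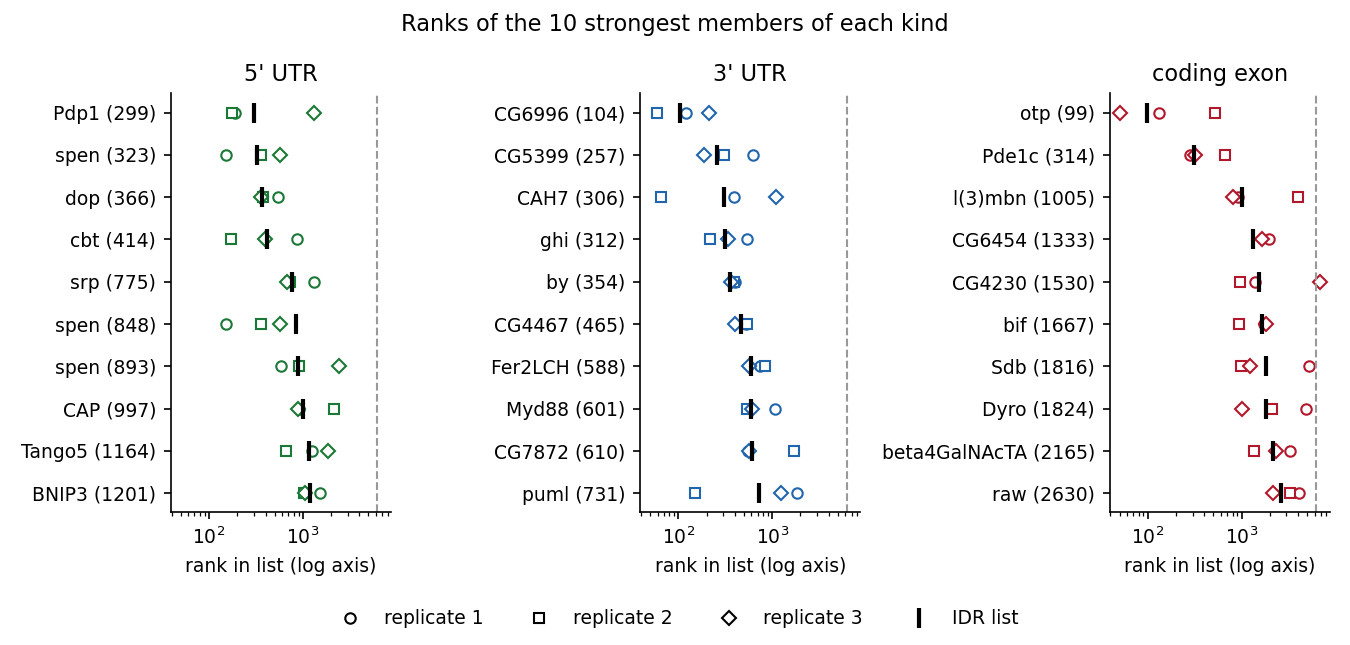
Rank of the 10 strongest members of each kind in each replicate list (open symbols) and in the IDR list (black bar, with the number beside the gene), on a logarithmic axis where the strongest region has rank 1. Replicate ranks are those of the strongest region that overlaps the interval of the member. The dashed line marks the last of the top regions; only 1 point, CG4230 in replicate 3, lies beyond it, and CG6454 has no point for replicate 2.

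Exonic peaks recurred between replicates about as often as other distal peaks. The top regions of all 3 replicates overlapped 120 of the 200 exonic peaks by at least 1 bp (60.0%, 95% Clopper-Pearson interval 52.9 to 66.8%), against 1883 of the 3213 other distal peaks (58.6%) and a background of 56.1% of all IDR peaks. The interval treats peaks as independent and covers counting error only. By kind, 42 of 68 5' UTR, 63 of 103 3' UTR and 15 of 29 coding-exon peaks were found in all 3. Exactly 2 replicates overlapped 54 exonic peaks, 1 replicate overlapped 26, and each of the 200 was overlapped in at least 1 replicate.

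The share per replicate was 78.0%, 85.5% and 83.5% of exonic peaks in replicates 1, 2 and 3, against 76.9%, 80.0% and 89.1% of other distal peaks. The difference was 1.09, 5.48 and -5.64 percentage points, a mean of 0.312 ± 5.60 (SD, n = 3), with an exact sign-flip permutation p of 1, so no difference beyond the spread between replicates was seen. Replicate 3 went the other way from replicates 1 and 2. Recurrence followed strength: 88 of the 94 exonic peaks among the 3100 strongest IDR peaks (93.6%) were found in all 3 replicates, against 32 of the 106 weaker ones (30.2%). For other distal peaks the same shares were 90.7% and 26.9%, and for all IDR peaks 86.9% and 25.3%. The IDR list was made from these same 3 replicates and filtered for agreement between them. Higher recurrence of strong peaks was therefore built in, and the shares are no independent evidence of reproducibility.

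In the relaxed lists, 185 exonic peaks (92.5%) had a region in all 3 replicates, against 96.3% of other distal peaks, and 171 (85.5%) had a replicate summit within 100 bp in all 3, against 86.5%. Of the 15 members that lacked a region somewhere, 5 lacked it in replicate 1, 5 in replicate 2 and 7 in replicate 3, and all 7 missing in replicate 3 were 3' UTR peaks. The strongest of them was CG17660 (peak 862), with ranks 1065 and 336 in replicates 1 and 2. The POU factor gene nub (5' UTR, peak 1680) had no region in replicate 1 but ranked 2931 and 1209 in replicates 2 and 3. Across members found in both relaxed lists, the ranks in replicates 1 and 2 had a Spearman's rho of 0.652 (n = 192), those in 1 and 3 of 0.562 (n = 188) and those in 2 and 3 of 0.486 (n = 188), against 0.602, 0.620 and 0.548 for other distal peaks. These values describe peaks that share a control alignment, not independent samples.

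Coding-exon summits were far more frequent among weak regions than among strong ones, whereas the 5' UTR share stayed flat and the 3' UTR share moved little by comparison. Among the top regions, 0.564%, 0.435% and 0.629% lay in coding exons in replicates 1, 2 and 3, against 2.76%, 3.42% and 5.36% of the remaining regions of the same lists. The difference, top minus remaining regions, was -3.31 ± 1.30 percentage points (SD, n = 3), negative in 3 of 3 lists, with the smallest possible exact sign-flip permutation p of 0.25. In groups of 3000 regions by strength, the strongest group of every replicate held 11 coding-exon summits (0.367%), and the weakest group held 188, 225 and 304 (6.27%, 7.50% and 10.1%) in replicates 1, 2 and 3. The 5' UTR share stayed between 0.700% and 1.27% in every group of every replicate. The 3' UTR share was 1.40%, 1.93% and 1.50% in the strongest group and 2.60%, 2.67% and 2.47% in the weakest, so it too was higher among weak regions in every replicate. The GC content near summits of all regions moved in the same direction: it averaged 42.0%, 44.6% and 42.9% in the strongest group and 45.1%, 45.8% and 46.3% in the weakest, and its part in the course of coding-exon summits was not tested.

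**Figure D4:**
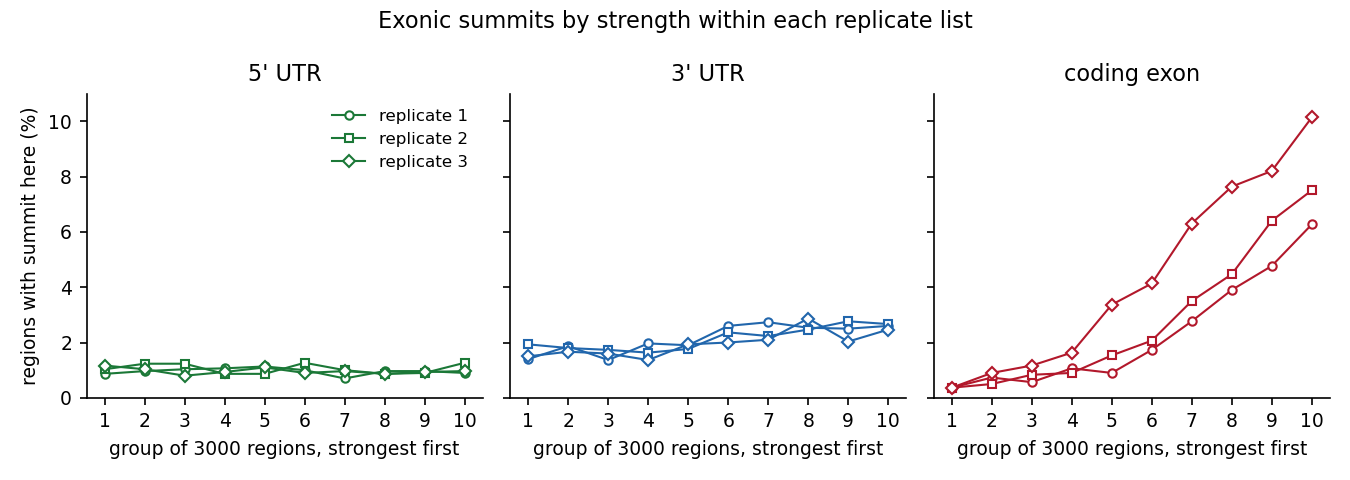
Percent of regions with a summit in a 5' UTR, a 3' UTR or a coding exon, for 10 groups of 3000 regions from the strongest to the weakest, with a line for each replicate. The coding-exon share climbs from 0.367% in the strongest group of each replicate to 6.27%, 7.50% and 10.1% in the weakest, whereas the 5' UTR share stays between 0.700% and 1.27%.

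Coding-exon summits of strong regions lay close to the edges of exons more often than those of weak regions. Of the 29 in the IDR list, 15 (51.7%) were within 100 bp of a base outside exons, against 31.0% of all coding-exon bases equally far from TSSs. The median distance to such a base was 95 bp for these summits and 216 bp for coding-exon bases. In the top regions of replicates 1, 2 and 3 the share within 100 bp was 57.1%, 48.1% and 64.1%, against 37.0%, 32.8% and 37.7% of the remaining coding-exon regions. The difference of 20.7 ± 5.53 percentage points (SD, n = 3) was positive in 3 of 3 lists, with an exact sign-flip permutation p of 0.25, the smallest possible. This comparison was chosen after the positions had been seen. The members CG4230 and Dyro had their summits 2 bp from the edge, with 48.2% and 16.9% of the interval inside exons, and l(3)mbn 18 bp, with 39.9% inside. By contrast, the whole interval was exonic for 11 of the 29 coding-exon peaks (37.9%), 41 of the 68 5' UTR peaks (60.3%) and 77 of the 103 3' UTR peaks (74.8%). For 3' UTR summits, 15.5% were within 100 bp of the edge, as were 15.6% of 3' UTR bases, and for 5' UTR summits 27.9%, against 35.4% of 5' UTR bases.

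Whether a summit counted as exonic often depended on the transcript. All protein-coding transcripts that span the summit had it in an exon for 129 members (64.5%): 85 of the 103 3' UTR members and 23 of the 29 coding-exon members, but only 21 of the 68 5' UTR members. The other 47 5' UTR summits thus lay in an intron of at least 1 other spanning transcript. First exons held 42 of the 5' UTR summits and later exons the other 26. The median distance to the nearest TSS was 830 bp for 5' UTR summits, against 1249 bp for all 5' UTR bases farther than 500 bp from TSSs. It was 1685 bp for 3' UTR summits, against 2579 bp for such 3' UTR bases, and 2111 bp for coding-exon summits, against 1946 bp for such coding-exon bases. The nearest TSS was that of the host gene for 61 of the 68 5' UTR summits. The farthest was a 5' UTR summit of baz, which encodes the polarity protein Bazooka, at 18754 bp (peak 2417), named after its distance had been seen. Over all kinds the median was 1438.5 bp, against 2479 bp for other distal peaks, and 62 members (31.0%) lay 500 to 1000 bp from a TSS, against 19.6% of other distal peaks.

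Summits in 3' UTRs were near transcript ends by the rule that chose them, at a median of 306 bp, with 51 of 103 within 300 bp. The nearest TSS belonged to another gene for 52 of the 103, at a median of 1533.5 bp. Of these 52 summits, 30 were upstream of that TSS, 25 of them by at most 2000 bp. Host and neighbour were on the same strand in 29 of these 30. The order of genes largely fixes this strand count, because a summit near its host's end lies downstream of the TSS of a convergent neighbour. The same counts over all 3' UTR bases were not made, so they are descriptions of position only. Over all kinds, 26 members overlapped a further annotated gene, and 2 members had a pair of host genes. Start sites of non-coding genes were within 500 bp of 8 members. Among them, peak 104 in CG6996 lay 489 bp from asRNA:CR32224 and peak 257 in CG5399 lay 459 bp from lncRNA:CR45635. Both are among the strongest 3' UTR members, and the non-coding genes were named after the distances had been seen.

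The 200 members lay in 183 host genes, 1.31% of the 13945 protein-coding genes. A single member was found in 167 of them, 2 in 13 and 3 in CAP, CG1888 and spen. Of the 183 host genes, 104 (56.8%) also had an IDR summit within 500 bp of a TSS of their own, against 724 of 1256 genes with an intronic summit (57.6%) and a background of 21.1% of all protein-coding genes. The share was 44 of 60 hosts (73.3%) for 5' UTR members, 50 of 99 (50.5%) for 3' UTR members and 13 of 27 (48.1%) for coding-exon members. Hosts of 5' UTR members with such a promoter peak included Pdp1, spen, cbt, srp, CAP and Mef2, whereas dop and nub had none. The coding-exon host otp had none either. Longer genes can hold more summits of either kind, and gene length was not part of these counts. The nearest other summit was a promoter summit within 1000 bp for 25 members (12.5%), 17 of them 5' UTR members. The share was 7.03% of other distal peaks and 12.1% of all IDR peaks. Distance from TSSs was not matched between these sets.

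Hosts were counted on 9 lists of genes, most of them short. Of 155 measured genes on a list of developmental transcription factors, 8 (5.16%) hosted an exonic summit, beside 1.31% of all protein-coding genes. The strongest were otp (peak 99), cbt (peak 414), srp (peak 775), the muscle factor gene Mef2 (5' UTR, peak 1444, ranks 1812, 5013 and 963) and nub (peak 1680). Among the weaker hosts on this list, crol (peak 2205) was in the top regions of every replicate. By contrast, tio (peak 3807) and hth (peak 3946) were in those of replicate 3 alone. These weaker hosts were named after their ranks had been seen, and gene length was not part of the list counts. Of 89 genes of signalling pathways, 3 (3.37%) were hosts. These were Socs36E, an inhibitor of JAK/STAT signalling (coding exon, peak 3064, ranks 2379, 2708 and 3786), shn, a factor of Dpp signalling (5' UTR, peak 4396, ranks 3885, 3880 and 9380), and S, which encodes Star of the EGF receptor pathway (5' UTR, peak 4779, ranks 8941, 10544 and 3027). The last was among the top regions of replicate 3 alone. No host was among 41 listed cytoskeleton and muscle genes, 93 ribosomal protein genes, 55 translation factor genes, 31 chaperone genes, 118 histone genes, 45 matrix and adhesion genes or 37 chromatin genes. All these numbers cover only listed symbols that matched the annotation. That left out 2 developmental transcription factor genes, 2 signalling genes, 5 chromatin genes, 2 matrix and adhesion genes and 1 cytoskeleton gene. Lists of this length hold few hosts at a background of 1.31%, and the counts do not describe whole classes: the cytoskeletal genes bif and by are hosts and are on none of these lists.

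Within 100 bp, the Iroquois sequence was somewhat less frequent at exonic summits than at other distal summits. ACANNTGT occurred at 10.5% of exonic summits, against 14.9% of other distal summits, and in 7.75% of equally wide windows placed 1000 bp to the left and right of the exonic summits. It was found at 7 5' UTR, 10 3' UTR and 4 coding-exon members. In the top regions of the replicates the share was 11.6%, 13.5% and 13.2% for exonic summits, against 13.2%, 14.6% and 15.3% for other distal summits. The difference was -1.64 ± 0.504 percentage points (SD, n = 3), lower in 3 of 3 lists, with an exact sign-flip permutation p of 0.25, the smallest possible. The sign turned with the window, being positive at 0.205 points within 50 bp and at 0.108 points within 250 bp, and it was 1.76 points for summits that were exonic in every spanning transcript. The 26 matches lay at a median of 32 bp from the summit, and 20 of them (76.9%) were within 50 bp, as at ghi, spen and Dci. Other palindromes were likewise more frequent at exonic summits than in the flanking windows. GTANNTAC occurred at 10.5% of exonic summits and in 5.25% of these windows. The palindrome ACGNNCGT occurred at 4.5% and in 1%. In every replicate both were also more frequent at exonic than at other distal summits. The excess over the flanks was therefore not particular to the Iroquois sequence. Not every sequence showed it: TATAAA occurred at 19.5% and in 21.8%.

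The GATA-factor sequence differed between the kinds of exonic summit. It occurred at 31.1% of 3' UTR, 24.1% of coding-exon and 14.7% of 5' UTR summits, against 23.1% of other distal summits, and in 6.25% of the windows flanking exonic summits. In replicates 1, 2 and 3 it was found at 36.7%, 30.5% and 25.3% of 3' UTR summits, against 10.5%, 17.1% and 16.4% of 5' UTR summits. The 3' UTR share exceeded the 5' UTR share by 16.1 ± 9.01 percentage points (SD, n = 3), in 3 of 3 lists, with an exact sign-flip permutation p of 0.25, the smallest possible; this contrast was chosen after the shares had been seen. Over all exonic summits the replicate shares were 25.8%, 25.1% and 22.4%, against 22.0%, 22.4% and 21.5% of other distal summits. That difference was 2.48 ± 1.43 percentage points (SD, n = 3, exact sign-flip permutation p = 0.25), and it was -1.43 points within 50 bp of summits and -0.194 points with a TSS limit of 250 bp, but 4.82 points with a limit of 1000 bp and 5.30 points for summits exonic in every spanning transcript. The 59 matches lay at a median of 55 bp from the summit, farther than the Iroquois matches, and 26 of them (44.1%) were within 50 bp. Both sequences occurred at 3 members, sqa, Ehbp1 and Inx2, which were named for this after the values had been seen.

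Simple repeats were most frequent at the 5' UTR summits. The CA repeat CACACACA lay within 100 bp of 15 5' UTR summits (22.1%), 9 3' UTR summits (8.74%) and 1 coding-exon summit (3.45%). Other distal summits held it at 11.6% and all IDR peaks at 10.3%. In the replicates the 5' UTR share was 19.3%, 15.7% and 19.4%, against 3.06%, 5.93% and 8.08% in 3' UTRs, a difference of 12.4 ± 3.37 percentage points (SD, n = 3, exact sign-flip permutation p = 0.25) that was also chosen after the shares had been seen. The GAGA-factor sequence GAGAGAG was found at 9 5' UTR summits (13.2%), 2 3' UTR summits (1.94%) and 1 coding-exon summit (3.45%). It was found at 6.72% of other distal summits and 7.43% of all IDR peaks. Its replicate means were 12.9% ± 2.15 in 5' UTRs, 1.69% ± 1.55 in 3' UTRs and 0.952% ± 1.65 in coding exons (SD, n = 3 each). The core promoter sequences TATCGATA, called DRE, and GGTCACACT, called Motif 1, were at none of the 200 exonic summits, against 0.373% and 0.124% of other distal summits and 2.52% and 1.42% of all IDR peaks. Promoter summits, which the rule leaves out of the members, held them at 5.16% and 3.01%. At shares as low as those of other distal summits, 200 summits are too few to tell an absence from a rare sequence. All sequences were searched on both strands.

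**Figure D5:**
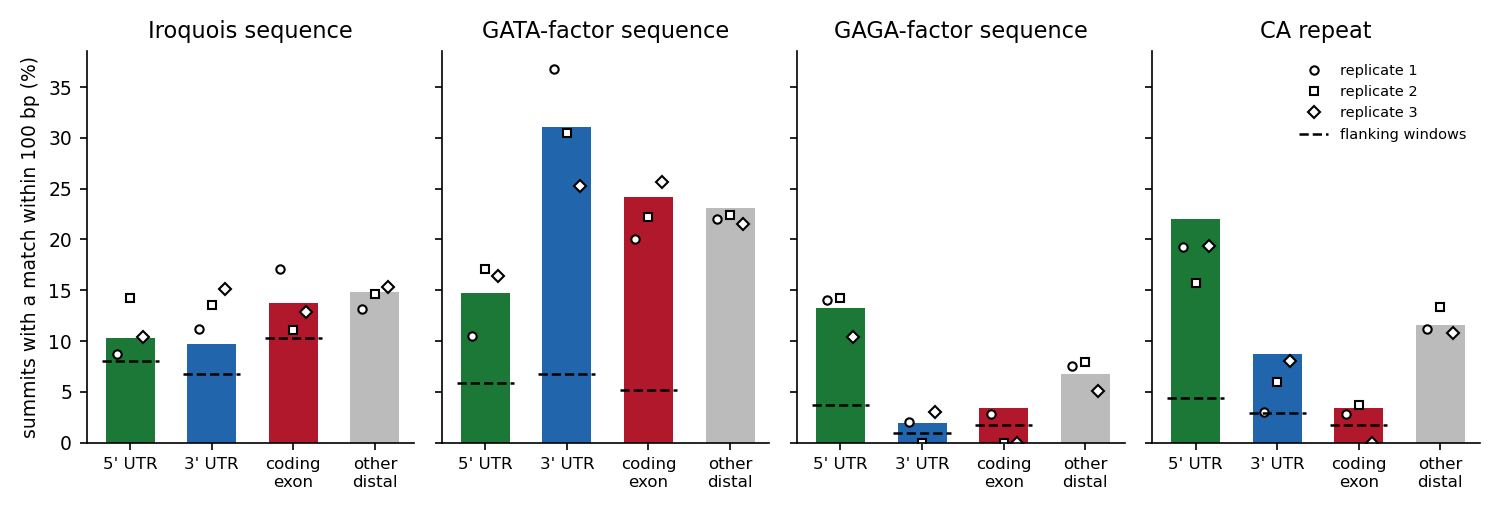
Percent of summits with a match within 100 bp for 4 sequences, by kind of exonic summit and for other distal summits. Bars give the IDR list, open symbols the top regions of each replicate and dashed lines the windows 1000 bp to each side of exonic summits; the GATA-factor sequence stands at 31.1% of 3' UTR summits and the CA repeat at 22.1% of 5' UTR summits.

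Base composition followed the kind of exon. The mean GC content within 100 bp of the summit was 44.7% ± 5.55 in 5' UTRs, 41.4% ± 6.15 in 3' UTRs and 51.8% ± 7.59 in coding exons (SD over peaks), against 43.6% ± 6.84 at other distal summits. All bases of the same kinds, farther than 500 bp from TSSs, had a GC content of 45.7% in 5' UTRs, 37.6% in 3' UTRs and 53.3% in coding exons, so the 3' UTR windows were the richer in GC and the other kinds slightly poorer. Richer windows were not particular to 3' UTRs: intron summits had 43.1%, against 39.7% of intron bases, and intergenic summits 45.1%, against 40.8%. The measures also differ, because a window around a summit can run out of the exon. Over all exonic summits the mean was 44.1%, against 42.6% in their flanking windows. The replicate difference between exonic and other distal summits was 1.09, -0.862 and 1.04 percentage points, a mean of 0.422 ± 1.11 (SD, n = 3), which did not exceed the spread between replicates (exact sign-flip permutation p = 0.5). Without replicate 1, 2 or 3 the mean was 0.0891, 1.06 or 0.113 points.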

How the data were processed

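ChIP-seq of GFP-tagged Mirror was deposited as narrowPeak lists for 3 replicates, for the 3 alignments together and after IDR. Per the deposited file descriptions, the reads were aligned to dm6, regions were called by replicate and on the pooled alignments against 1 shared control alignment, and IDR was applied; aligner, caller, IDR threshold and depth are not given in the sources used here. The signal column was used as the authors deposited it, to rank regions within a list; the replicates share a control, and signals were compared only within a list. Without read numbers, no counting error of a signal is given.

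Summits were placed on the Ensembl 115 annotation of BDGP6.54 (13945 protein-coding genes with 19252 TSS positions on the main arms, X and 4 included) and on the RefSeq release 6 sequence; all 5 lists end inside its arms. A summit within 500 bp of a TSS was a promoter summit; otherwise 5' UTRs came before 3' UTRs, these before coding exons, and introns before intergenic sequence. Replicate statistics use the 6201 strongest regions of each list, compared by exact two-sided sign-flip permutation tests, which cannot go below 0.25 with 3 lists. Both strands of the 100 bp to each side of a summit were searched for 15 sequences, and 9 gene lists were counted. Sequences are printed only for members on other arms than 2R. Peaks are not replicates, so shares of peaks are descriptions. Named genes are hosts of the 10 strongest members of each kind, genes with at least 3 members, hosts on the lists (at most 5 a list), peaks next to the 500 bp limit and members shown with a sequence; others are said to be chosen later. The members, lists and sequences were chosen with earlier results of these data known. Alternatives were the TSS limit, the TSSs used, the transcripts required, merged regions, the 3100 strongest peaks, the overlap rule, the sequence window, the assignment order and leaving out each replicate. Placement, search and overlap were tested on simulated data. Python 3.11.15, pandas 2.3.3, numpy 2.4.6, SciPy 1.17.1 and matplotlib 3.10.9 were used.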

Additional observations from a re-analysis of the deposited data

How the results depend on the processing

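Of 73 alternative values, 13 changed sign and 7 others moved beyond the limit set for a count or a share. The remaining 53 kept their sign or stayed within that limit; several of these differed in size. The number of exonic summits was 129 when every spanning transcript had to be exonic and 94 among the 3100 strongest peaks. The share found in all 3 replicates was 51.1% with the 3100 strongest peaks and regions, 36.0% with 50% reciprocal overlap and 92.5% with the whole relaxed lists; without 1 replicate, the share found in both others was 65.5 to 71.5%. The overlap difference between exonic and other distal peaks was -1.49 points with a TSS limit of 250 bp, -0.103 with the TSSs of all genes, -1.13 with the 3100 strongest, -1.52 with the relaxed lists and -2.27 to 3.29 when a replicate was left out; it reached 2.26 with summits within 100 bp. The Iroquois difference was 1.76 points with summits exonic in every transcript, 0.205 within 50 bp and 0.108 within 250 bp. The GATA difference was -0.194 points with a TSS limit of 250 bp and -1.43 within 50 bp; it kept its sign at 0.786 with the 3100 strongest, 1.42 within 250 bp, 4.82 with a TSS limit of 1000 bp and 5.30 with summits exonic in every transcript. The GC difference was -0.295 points with a TSS limit of 1000 bp and -0.173 within 250 bp; it was 0.0891 to 1.06 when a replicate was left out. The causes of these changes were not tested. The log2 signal ratio kept its sign but ranged from -0.076 with a TSS limit of 250 bp to -0.0015 with a limit of 1000 bp, and it was -0.048 to -0.014 when a replicate was left out. The coding-exon difference ranged from -3.86 to -2.59 points over the alternatives run. Unknown depth limits all comparisons between replicate lists, and 3 lists cannot give a permutation p under 0.25. Differences were taken within each replicate list. No comparison between groups of samples was possible because the samples form 1 group.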
